A study of Mus musculus with 4 samples.

Results

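To determine which responses to an inhaled allergen remained in the lung when T cells lacked Ift20, leukocytes of papain-treated KO mice were compared with leukocytes of KO mice given Dulbecco's phosphate-buffered saline (DPBS). KO mice carried the floxed Ift20 allele and the CD4 cre transgene (Ift20 f/f CD4 cre), and wild-type (WT) mice carried the floxed allele without Cre (Ift20 f/f). All mice were C57BL/6 males of 5 to 10 weeks, and 25 µg of papain was given into the nose on 3 consecutive days and again on day 14, with lungs taken on day 15. Live (7-AAD-negative) CD45.2+ lung cells were sorted and measured by droplet single-cell RNA sequencing, with 1 library for each genotype and treatment. Barcodes were kept with more than 200 detected genes and under 15% of their unique molecular identifiers (UMIs) from mitochondrial genes. This left 11406 barcodes in the 2 KO libraries, 5704 with DPBS and 5702 with papain, of 27544 in the whole series, and 10886 of 25982 after doublet removal. The number of mice behind each library was not given in the sources used here. With 1 library a side there was no test, and every interval below is a 95% interval that covers counting error only.

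Papain is a cysteine protease that damages the airway epithelium. Alarmins released there, among them IL-33, act on group 2 innate lymphoid cells (ILC2) and on T helper 2 (Th2) cells, whose IL-4, IL-5 and IL-13 turn macrophages toward alternative activation and recruit eosinophils. Th17 cells secrete IL-17, which draws neutrophils into the airway. IFT20 is a Golgi-associated intraflagellar transport protein, and CD4-Cre acts in developing thymocytes, so both CD4 and CD8 T cells lose the gene.

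Ift20 (chr11:78536361-78541737, plus strand, mm10) was lower in KO than in WT in CD4 T cells, CD8 T cells and T cells with NK genes. In CD4 T cells it was at 21.6 and 18.9 CPM (UMIs of the gene scaled to a class total of 1000000 UMIs) in DPBS KO and Papain KO, against 58.9 and 59.4 CPM in the WT libraries. CD8 T cells had 15.3 and 16.5 CPM against 52.0 and 52.9, and T cells with NK genes 19.5 and 23.3 against 70.7 and 61.9. ILC2 had 70.9 and 68.4 CPM in KO against 59.2 and 82.7 in WT, alveolar macrophages 57.7 and 58.1 against 56.1 and 64.8, and NK cells 109 and 103 against 117 and 121, with counting intervals of the NK values that overlap. The reads tag the 3′ end of the transcript and not the deleted exons 2 and 3, so these values show transcript level and not the deletion itself.

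Classes were rebuilt from the counts and named from marker genes, and each short name stands for cells like that type. The median depth per cell was 6542.5 UMIs in DPBS KO and 6689 in Papain KO. The KO libraries shared 6 barcodes. Doublet calling did not remove all mixed droplets. Cells with markers of a second lineage numbered 2 in DPBS KO and 18 in Papain KO among CD4 T cells, 3 and 23 among classical monocytes, 27 and 32 among alveolar macrophages, and 17 and 30 in the cluster marked by C1q and Cd209a. Results were therefore also taken without these cells, and the second value stands beside each result that it moves. No cluster was named eosinophil, mast cell or basophil. A cluster led by Mmp9 and Retnlg with 42 cells in DPBS KO and 63 in Papain KO stayed unnamed because its markers were mixed, although it scored highest for neutrophil.

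After papain, the KO lung libraries held a larger share of neutrophils and a smaller share of alveolar macrophages, and the shares of ILC2 and NK cells were larger when counted over all cells. Neutrophils were 109 of 5444 cells (2%) in DPBS KO and 234 of 5442 cells (4.30%) in Papain KO, a log2 ratio of 1.10 (interval 0.77 to 1.44), and the same ratio in WT was 1.58. ILC2 were at 0.937% and 1.45% (51 and 79 cells), a log2 ratio of 0.63 (0.11 to 1.17), against 0.20 in WT. NK cells were at 1.18% and 1.67% (64 and 91 cells), a log2 ratio of 0.51 (0.03 to 0.99). In WT the NK share moved the other way, from 155 to 54 cells and by a log2 ratio of -1.5 (-1.97 to -1.04).

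Alveolar macrophages, the resident phagocytes of the airspace, numbered 1259 cells (23.1%) in DPBS KO and 555 cells (10.2%) in Papain KO. The log2 ratio was -1.18 (-1.33 to -1.04), against -0.40 (-0.52 to -0.29) in WT. The lower share was not even over the macrophage clusters. The largest cluster went from 771 to 270 cells (log2 ratio -1.51, -1.72 to -1.31), the second one from 347 to 252 cells (-0.46, -0.70 to -0.22), and the 2 dividing clusters from 61 to 19 and from 80 to 14 cells. In WT the first 2 clusters had log2 ratios of -0.39 and -0.25. The dividing clusters were lower in WT also, at -1.12 (86 and 39 cells) and -1.37 (79 and 30 cells), against -1.68 and -2.51 in KO.

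A share depends on the other classes of its library. B cells went from 27.2% to 32.1% of cells (log2 ratio 0.24), CD4 T cells from 16.1% to 17.3% (0.11) and CD8 T cells from 12.3% to 14.2% (0.21). With alveolar macrophages left out of the total, these 3 ratios were 0.015, -0.11 and -0.015. Each of these 3 lymphocyte classes, taken as a whole, thus kept nearly the same proportion to the other cells. On that total the neutrophil ratio was 0.88 (0.55 to 1.22), whereas those of ILC2 (0.41, -0.12 to 0.94) and NK cells (0.28, -0.19 to 0.77) had intervals that hold 0. Classical monocytes (294 and 273 cells, -0.11) and nonclassical monocytes (280 and 279 cells, 0.00) were at nearly equal shares of all cells in the 2 KO libraries, and their WT ratios were 0.36 and 0.63. Without alveolar macrophages in the total the KO ratios were -0.33 (-0.57 to -0.09) and -0.23 (-0.47 to 0.02). The cluster marked by C1q and Cd209a, which joins interstitial macrophage and dendritic cell genes, had 78 and 118 cells in KO (0.60, 0.17 to 1.03, or 0.37, -0.05 to 0.81, without alveolar macrophages in the total) and a ratio of 1.18 in WT. Plasma cells were too few to compare (3 and 10 cells in KO, 6 and 25 in WT), and so were mature dendritic cells (12 and 10 in KO, 18 and 49 in WT). The differences between genotypes were not tested, here and below, since a genotype has 1 pair of libraries.

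**Figure D1:**
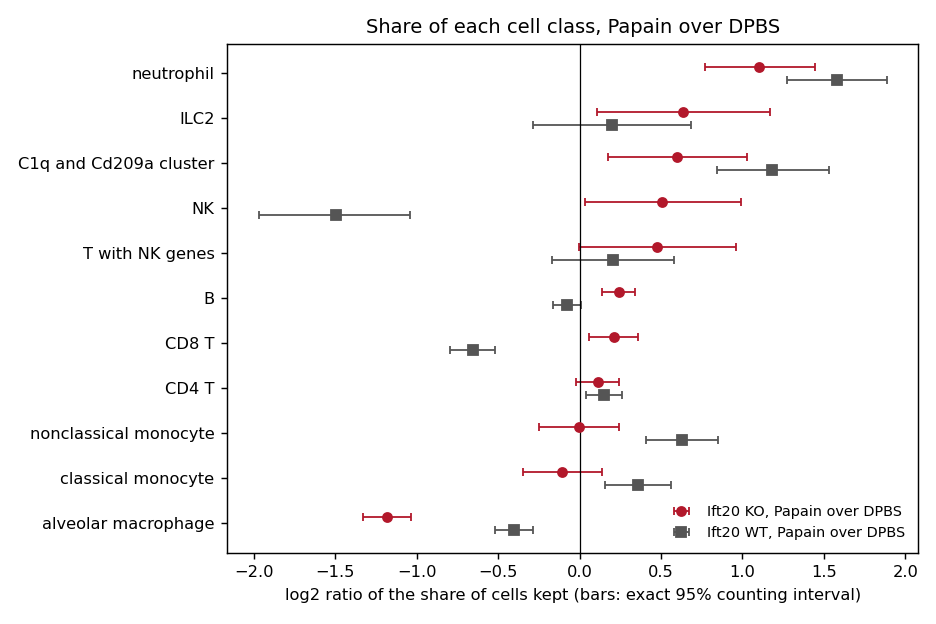
Log2 ratio of the share of cells in the papain library to that in the DPBS library for each class (points) with the 95% counting interval (bars), for KO and WT. Alveolar macrophages lie lowest in KO at -1.18, neutrophils are above 0 in both genotypes, and NK and CD8 T cells have opposite signs in KO and WT as shares of all cells.

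The neutrophils of Papain KO were more numerous, but their inflammatory genes were mostly at the level of DPBS KO. A gene is counted below as past the fold when its CPM differed 2-fold or more between the 2 KO libraries and it had at least 50 UMIs over both. In neutrophils 1.48% of 2630 genes were past the fold upward and 0.532% downward. Among the measured inflammatory genes 2 of 10 were higher and 0 lower, with a median log2 ratio of 0.17. The median over all genes measured in a class lay between -0.010 and 0.065 in KO, apart from the C1q and Cd209a cluster. The 2 genes were Tnf and Ccl4. Tnf had 10 UMIs in 9 cells of DPBS KO and 90 UMIs in 35 cells of Papain KO, a log2 ratio of 1.82 (0.87 to 2.93), with 0.32 in WT. Ccl4, a chemokine for T cells and monocytes, had 69 and 637 UMIs (1.85, 1.49 to 2.23), of which 191 lay in 1 cell, and its WT ratio was -1.49. Il1b was abundant in both libraries, at 12908 and 16358 CPM (0.34).

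The genes of neutrophils with large rises under the rule for named genes included the early activation marker Cd69 (6 and 70 UMIs, 2.19), the heat shock gene Hspa1b (9 and 104 UMIs, 2.18), the deubiquitinase Usp2 (5 and 50 UMIs, 1.97) and Tnf. Of these 4 genes only Usp2 was past the fold upward in WT also (1.52). Hspa1b was at 117 and 26.1 CPM in DPBS WT and DPBS KO, and at 143 and 118 CPM in Papain WT and Papain KO. Its UMIs in Papain WT went from 180 to 59 without cells with markers of another lineage. Its log2 ratio was then -0.996 in WT, against 0.29 with all cells, and 2.33 in KO (5 and 64 UMIs). Tnf was at 26.0 and 29.0 CPM in DPBS WT and DPBS KO, and at 32.6 and 102 CPM in Papain WT and Papain KO. The genes with the largest falls were Psip1 (-1.21), the inhibitory receptor Lair1 (-1.20) and Usp36 (-1.19). Granule genes of mature neutrophils were nearly level, with S100a8 at 0.03 and S100a9 at 0.10, and 0 of 5 measured granule genes were past the fold. Genes of immature granules were near absent in KO, where Camp had 0 and 1 UMIs, Ngp 2 and 4, and Ltf 1 and 4. In WT they had 0 and 146, 6 and 330, and 2 and 147 UMIs.

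Papain KO macrophages had more transcript of acute inflammatory cytokines and chemokines, while none of the measured genes of alternative activation was past 2-fold upward. Over all 10589 genes measured in this class, 1.71% were past the fold upward and 0.491% downward. Of the 15 measured inflammatory genes 6 were higher and 0 lower, with a median log2 ratio of 0.73. Il1b had 2794 UMIs (118 CPM) in DPBS KO and 4316 UMIs (389 CPM) in Papain KO, a log2 ratio of 1.72 (1.66 to 1.79). Il6 had 315 and 538 UMIs (1.87, 1.67 to 2.07), and the neutrophil chemokine Cxcl1 had 745 and 1374 UMIs (1.98, 1.85 to 2.11), of which 210 lay in 1 cell. The other 3 were Cxcl10 (1.74), Ptgs2, the inducible cyclooxygenase (1.19), and the monocyte chemokine Ccl2 (1.07). The WT ratios of these genes were 1.55 for Il1b, 2.38 for Il6, 0.51 for Cxcl1, 0.77 for Cxcl10, 3.25 for Ptgs2 and 0.72 for Ccl2, and the WT list median was 0.72. Inhba, which encodes a subunit of activin A, had 287 and 182 UMIs in KO (0.44, 0.16 to 0.71) and 122 and 820 UMIs in WT (3.42). Areg, an epidermal growth factor receptor ligand, had 847 and 976 UMIs in KO (1.30) and a ratio of -0.08 in WT. It was at 77.8 and 35.6 CPM in DPBS WT and DPBS KO, and at 73.4 and 87.9 CPM in Papain WT and Papain KO. In the largest macrophage cluster Cxcl1 was at 113, 38.9, 113 and 133 CPM in the same order. In the second cluster Cxcl1 was at 25.5, 18.9, 106 and 126 CPM.

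In the same class the alternative activation genes were at different ratios in the 2 genotypes. Of the 9 measured genes in KO 0 were higher and 1, Retnla, lower, with a median log2 ratio of 0.01, whereas in WT 6 of 11 were higher and the median was 1.58. Retnla, which encodes the secreted protein RELMα, had 44 UMIs (1.85 CPM) in DPBS KO and 8 UMIs (0.72 CPM) in Papain KO, a log2 ratio of -1.36 (-2.66 to -0.26). The WT libraries had 22 and 612 UMIs (5.47). Lymphocytes of the KO libraries had similar values per UMI, with CD8 T cells at 2.06 and 0.56 CPM (11 and 4 UMIs). B cells were at 1.31 and 1.67 CPM (9 and 17 UMIs). In macrophages of DPBS KO 13 of the 44 UMIs lay in 1 cell. The source of these few UMIs was not tested, and no fall is read from them. Chil3, the chitinase-like protein Ym1, was among the most abundant transcripts and level in KO, at 13621 and 13712 CPM (0.01). In WT it stood at 11959 and 35680 CPM (1.58).

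Arg1, which encodes arginase 1, had 25 and 17 UMIs in KO, under the minimum of 50 (0.54, -0.44 to 1.49), and 27 and 1509 in WT (6.48). Ccl17, a chemokine for CCR4-bearing T cells, had 239 and 178 UMIs in KO, a log2 ratio of 0.67 (0.38 to 0.96) that stayed below 2-fold, and 38 and 3580 in WT (7.23). The eosinophil chemokine Ccl24 had 40 and 16 UMIs in KO, in 3 cells of each library (-0.22, -1.16 to 0.64). In WT it had 0 and 1403 UMIs, at least 745-fold higher after papain against a limit of 3 counts. The KO intervals of Arg1 and Ccl24 hold 0, so no difference was detectable at this depth, although each interval ends far below the WT value. The KO list median was 0.03 without cells with markers of another lineage. Without integration 433 of 1086 Papain WT cells and 53 of 555 Papain KO cells of this class joined the C1q and Cd209a cluster. In Papain WT 1283 of the 1509 Arg1 UMIs and 1395 of the 1403 Ccl24 UMIs lay in the second macrophage cluster. In the largest cluster Chil3 was at 0.18 in KO and 1.28 in WT. How far these list values depend on integration was not tested.

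IL-4 and IL-13 signal through STAT6, a factor known to bind palindromes with 4 bases between the arms. The motif TTCNNNNGAA, which is its own reverse complement, was found in the promoter windows (250 bases before to 50 after the start) of 3 of the 9 list members with a RefSeq window (GRCm38.p6), against 6.95% of all 32851 windows. The 3 sequences are shown, with the motif in capitals, because they are the list members that hold it, and no relation of the motif to the response was tested.
Retnla, chr16:48842419-48842518, plus strand, motif starting 145 bases before the start: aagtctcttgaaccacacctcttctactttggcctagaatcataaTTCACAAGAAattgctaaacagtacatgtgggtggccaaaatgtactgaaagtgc
Ccl17, chr8:94810254-94810353, plus strand, motif starting 154 bases before the start: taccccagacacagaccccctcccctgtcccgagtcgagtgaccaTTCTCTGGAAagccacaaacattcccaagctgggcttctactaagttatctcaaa
Pdcd1lg2, chr19:29410792-29410891, plus strand, motif starting 82 bases before the start: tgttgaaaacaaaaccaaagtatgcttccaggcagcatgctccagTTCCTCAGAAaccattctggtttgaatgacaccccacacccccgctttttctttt
Pdcd1lg2, the ligand PD-L2, had 163 and 84 UMIs in KO (0.14) and a ratio of 0.89 in WT. A match is a run of letters in the reference and not a measured site, and the other 6 windows (Chil3, Chil4, Ear2, Flt1, Mgl2 and Mrc1) had none.

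**Figure D2:**
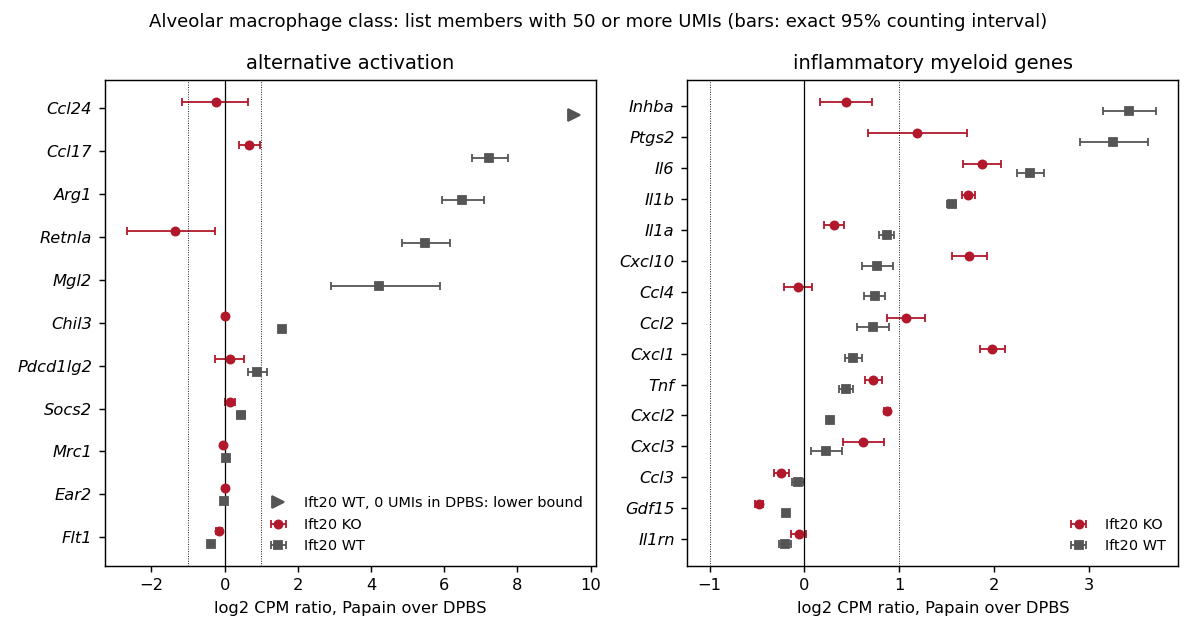
Log2 ratio of CPM in the papain library to that in the DPBS library for inflammatory and alternative activation genes of alveolar macrophages, with 95% counting intervals, in KO and WT. Il1b and Il6 lie above 1 in both genotypes, while Retnla is at -1.36 in KO (from 44 and 8 UMIs) and 5.47 in WT. The triangle for Ccl24 in WT marks a lower bound.

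Among all genes of this class, Syngr1, which encodes the vesicle protein synaptogyrin 1, had the largest rise (19 and 145 UMIs, 4.03, 3.33 to 4.8), and its WT ratio was 5.97. The complement subunit gene C1qb (12 and 57 UMIs, 3.35), the lymphocyte activation receptor Slamf7 (11 and 47 UMIs, 3.19) and the complement receptor C3ar1 (12 and 40 UMIs, 2.83) followed, with 3.23, 5.61 and 3.66 in WT. These transcripts lay mainly in the second macrophage cluster, where Syngr1 went from 5 to 134 UMIs and was found in 36 of 252 cells of Papain KO, whereas the largest cluster had 11 and 9 UMIs. When the libraries were clustered without integration, part of these cells joined the C1q and Cd209a cluster, and Syngr1, C1qb and C3ar1 were then at -0.18, -0.040 and -0.69 in the remaining macrophages. The fifth rise, the B-cell factor Ebf1 (2.67), was 0.95 without cells with markers of another lineage. That set also named Erbb2 (16 and 38 UMIs, 2.57). The largest falls were those of Fam167a (46 and 4 UMIs, -2.43), Stbd1, a glycogen-binding protein (97 and 11 UMIs, -2.04), and the cell cycle repressor E2f7 (70 and 10 UMIs, -1.71), with -0.05, -0.37 and -0.84 in WT.

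Identity genes of alveolar macrophages were past the fold in 0 of 10 measured members, with a median of -0.17 in KO and -0.33 in WT. The fatty acid binding genes Fabp4 and Fabp5 were at -0.66 and -0.14 in KO and at 0.33 and 0.84 in WT. The median of 14 cell cycle genes was -0.54 in KO and -0.66 in WT. Among 7 interferon-induced genes, Isg15 was past the fold (243 and 274 UMIs, 1.27) and the median was 0.14. MHC class II genes had a median of 0.74, or 0.61 without cells with markers of another lineage, and H2-Eb1 was then no longer past the fold (1.15 and 0.92). Over all genes, those past the fold upward went from 181 to 116 without those cells, and genes past the fold downward went from 52 to 54.

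The C1q and Cd209a cluster was small, with 78 and 118 cells in the KO libraries. It had the highest share of genes past the fold upward of the 11 classes (3.43% of 6438 genes, 0.45% downward). The median over its genes lay at 0.128 on the log2 scale. The largest rises were those of complement C3 (7 and 127 UMIs, 3.31), the adhesion gene Icam2 (8 and 138 UMIs, 3.24), the cytokinesis gene Prc1 (4 and 62 UMIs, 3.08), the matricellular gene Thbs1 (53 and 811 UMIs, 3.06) and leukotriene C4 synthase, Ltc4s (32 and 405 UMIs, 2.79). In WT these genes were at 1.37, -0.91, 0.19, 1.19 and 0.97. Without cells with markers of another lineage the WT ratios were 1.87, 0.13 (Icam2, 6 and 17 UMIs), 0.38, 1.07 and 1.27. Fcer2a, the low-affinity IgE receptor CD23, had the largest fall (33 and 19 UMIs, -1.67), but only 5 and 2 UMIs without cells with markers of another lineage (-2.09, -5.48 to 0.52). It was followed by Mmd (-1.37) and Tmem181a (-1.30).

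Alternative activation genes were mixed in this cluster, with 3 of 9 higher, 1 lower and a median of -0.28, against 8 of 12 higher and a median of 2.13 in WT. Ccl24 had 5 and 107 UMIs in KO (3.55, 2.28 to 5.20), in 13 cells of Papain KO with 60 UMIs in 1 of them, and 14 and 2358 UMIs in WT (6.31). Chil3 had 68 and 402 UMIs (1.69), 249 of them in 1 cell, and a WT ratio of 4.03. Retnla was abundant but in few cells, with 4350 UMIs in 12 cells and 3434 UMIs in 15 cells (-1.21), and -0.50 in WT. Ccl17 was at -0.79 in KO and 2.15 in WT. Within 13 cell cycle genes 5 were higher, with a median of 0.69 in KO and 0.40 in WT. Without cells with markers of another lineage, Ccr7, the receptor that guides dendritic cells to lymph nodes, was at -1.59, compared with -0.21 in all cells.

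In classical monocytes of KO 1 of 11 measured inflammatory genes was higher, 2 were lower, and the median was 0.16, against 5 higher, 1 lower and 0.77 in WT. Over all genes 0.701% of 7566 were past the fold upward and 0.317% downward. Cxcl10 was the higher one (88 and 347 UMIs, 1.97), with 228 UMIs in 1 cell, and its WT ratio was 1.95. The lower ones were Cxcl1 (59 and 11 UMIs, -2.43) and the stress-induced Gdf15 (-1.08), with 1.45 and -1.09 in WT. Areg had 195 and 74 UMIs (-1.41) in KO and 93 and 324 in WT (1.30). S100a8 had 94 and 31 UMIs (-1.61, or -1.06 without cells with markers of another lineage) and S100a9 123 and 55 UMIs (-1.17, or -0.83), with 2.20 and 2.55 in WT. In DPBS KO 54 of the 94 UMIs of S100a8 and 59 of the 123 UMIs of S100a9 lay in 1 cell.

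The 5 genes with the largest rises in classical monocytes were lymphocyte genes: Cd3e (3.58), Lef1 (3.55), Lat (2.93), Cd3g (2.46) and Ebf1 (2.22). Without cells with markers of another lineage they were at -0.45, 0.55, 1.60, -0.32 and 0.14, and the genes past the fold upward went from 53 to 28. Those then named included the heparan sulphate proteoglycan Sdc4 (18 and 68 UMIs, 1.78) and Tcea3 (1.63), and Sdc4 was at 1.36 in WT. The largest falls were those of endoglin, Eng (48 and 14 UMIs, -1.78), Lsmem1 (50 and 18 UMIs, -1.48) and Areg.

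In nonclassical monocytes, which patrol the vessel wall, 0.45% of 6673 genes were past the fold upward and 0.285% downward. Eef1akmt2 (12 and 39 UMIs, 1.66), Ltn1 (1.44), Mri1 (1.41), Tcea3 (33 and 85 UMIs, 1.32) and Rnd3 (29 and 71 UMIs, 1.25) had the largest rises. The largest falls were those of Ube2o (-1.31), P2ry10 (53 and 22 UMIs, -1.31) and Ankrd37 (-1.26). Ccl4 had 154 and 404 UMIs (1.35, 1.08 to 1.63) and was lower in WT (615 and 301 UMIs, -1.42). Ccl2 had 48 and 115 UMIs (1.22), 50 of them in 1 cell.

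ILC2, which keep Ift20 in the KO mice, held more Il13 after papain, although less than in WT. Il13 had 29 UMIs in 4 of 51 cells of DPBS KO and 101 UMIs in 14 of 79 cells of Papain KO. The log2 ratio was 1.19 (0.58 to 1.83). In DPBS KO 16 of the 29 UMIs lay in 1 cell, and in Papain KO 32 of the 101. The WT libraries had 7 and 257 UMIs (4.41), in 5 and 19 cells. Il5, the eosinophil growth factor, had 53 and 39 UMIs in KO (-1.06), but 40 of the 53 lay in 1 cell, and its WT ratio was 0.70. Areg had 199 and 384 UMIs (0.33, 0.08 to 0.59) and Csf2, which encodes GM-CSF, 175 and 275 UMIs (0.04, -0.24 to 0.32), against 1.11 and 1.48 in WT. Il4 had 5 and 14 UMIs, under the minimum. Of the 4 measured type 2 cytokine genes 1 was therefore higher and 1 lower in KO, with a median of 0.19, against 3 of 4 higher and 1.30 in WT.

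The genes that define ILC2 were level. None of 6 measured type 2 receptors and regulators was past the fold in KO, the median was -0.06, Gata3 was at -0.04 and the IL-33 receptor gene Il1rl1 at -0.07. Over all genes 1.97% of 1779 were past the fold upward and 0.393% downward. The named ones were Utp11 (6 and 45 UMIs, 2.29), the linker histone Hist1h1c (32 and 148 UMIs, 1.60), the helicase Dhx9 (1.56), the autophagy receptor Sqstm1 (1.19) and Mns1 (1.19) upward, and Tuba1b (-1.33), Snx20 (-1.22) and Impact (-1.06) downward. Tuba1b was at 0.20 when cells were assigned by single transcripts.

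NK cells had more chemokine transcript and level cytotoxic genes. Ccl3 had 87 and 339 UMIs (1.49, 1.14 to 1.85) and Ccl4 211 and 645 UMIs (1.14), with 0.32 and 0.98 in WT. Ifng had 73 and 159 UMIs (0.65, 0.24 to 1.07), under 2-fold, and 0.78 in WT. None of 7 measured cytotoxic genes was past the fold, with a median of 0.19 in KO and 0.10 in WT, and 1.18% of 2805 genes were past the fold upward and 0.57% downward. The named genes were the adapter Lax1 (7 and 48 UMIs, 2.30), the noncoding RNA Kcnq1ot1 (23 and 127 UMIs, 1.99), Ccl3, the stress factor Ddit3 (1.39) and Klf10 (1.38) upward, and Dtnbp1 (-1.26), Ssbp2 (-1.26) and Hilpda (-1.25) downward.

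T cells that carry NK genes, as NKT cells do, had low Ift20 in KO and numbered 64 and 89 cells. The small heat shock gene Hspb1 (2 and 82 UMIs, 4.69, 2.79 to 7.76) and Hspa1b (103 and 569 UMIs, 1.80) had the largest rises among genes without over 25% of their UMIs in 1 cell, before Tespa1 (1.62), Commd6 (1.44) and Sdf2 (1.42). Lmna (-1.83), Myc (-1.39) and Rela (-1.22) had the largest falls. Ccl3 had 1 and 101 UMIs (5.99, 3.48 to 11.3), Gzmb 65 and 45 UMIs (-1.19) with 43 in 1 cell, and Ifng was at 0.09. The WT ratios of Ccl3 and Gzmb were -1.28 and 1.75. Over all 2871 genes 1.18% were past the fold upward and 0.871% downward.

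The Th2 cytokine response seen in WT was near absent in KO CD4 T cells, while some genes of the type 2 program were higher than in DPBS KO. Over all genes of CD4 T cells, 2.54% of 8848 were past the fold upward and 0.215% downward, and the list counts below stand against these shares. Il4 had 1 UMI in each KO library and 7 and 128 UMIs in WT. Il13 had 0 in both KO libraries and 17 and 241 in WT. These low counts allow no KO ratio. Areg was the measured member of the type 2 cytokine list, with 113 and 280 UMIs in KO (0.96, 0.64 to 1.29) and 145 and 1352 in WT (2.93). T cells with no single call lie outside this class. There Il13 had 0 and 9 UMIs in KO, in 3 cells of Papain KO, and 0 and 205 in WT. Il4 had 1 and 3 UMIs in KO and 0 and 37 in WT. Il5 had 0 and 72 UMIs in KO, all in 1 cell, and 0 and 54 in WT.

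Among type 2 receptors and regulators 2 of 5 measured genes were higher in KO, with a median of 0.29, and 6 of 8 in WT, with a median of 2.94. Il1rl1 had 18 and 72 UMIs (1.65, 0.89 to 2.49) and Ccr4, a receptor for CCL17, 29 and 92 UMIs (1.32). Without cells with markers of another lineage they were at 1.26 and 1.00, and 1 of the 5 was then past the fold. Gata3 had 389 and 605 UMIs (0.29), and Il4ra was at -0.58. The WT ratios of Il1rl1, Ccr4 and Gata3 were 4.05, 2.68 and 1.47.

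Activation genes did not pass the fold in KO (0 of 10, median 0.32), whereas 5 of 10 did in WT (median 0.82). The costimulatory receptors Tnfrsf4, Icos and Tnfrsf9 were at 0.05, -0.05 and 0.56 in KO and at 2.61, 1.09 and 2.48 in WT. Regulatory T-cell genes had 1 of 5 members past the fold in KO (median 0.61, or 0.31 without cells with markers of another lineage) and 7 of 7 in WT (median 1.64). Il2ra was the member past the fold (44 and 140 UMIs, 1.32, WT 3.14). Foxp3, the lineage factor, had 82 and 153 UMIs (0.55), and Ctla4 was at 0.71. Type 1 genes were mixed in KO, where 3 of 9 were higher and 2 lower (median 0.82). In WT 0 were higher and 3 lower (median -0.60). Ifng had 64 and 165 UMIs in KO (1.02, or 0.76 without cells with markers of another lineage). Gzmb had 49 and 138 UMIs (1.15) and Nkg7 233 and 665 UMIs (1.17). The WT ratios of these 3 genes were -0.99, -0.47 and -1.12. Ifng was at 41.0 and 11.7 CPM in DPBS WT and DPBS KO, and at 20.7 and 23.8 CPM in Papain WT and Papain KO. In DPBS WT 60 of its 330 UMIs lay in 1 cell. Gzma was lower (-1.51), with 192 of 307 UMIs of DPBS KO in 1 cell and -3.33 without those mixed cells, and so was Ccl5 (-1.53).

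A sub-cluster led by Foxp3 and Il1rl1 was larger after papain in both genotypes. It held 122 cells in DPBS KO (2.24%) and 170 in Papain KO (3.12%), a log2 ratio of 0.48 (0.14 to 0.83), and 191 and 434 cells in WT (1.21, 0.96 to 1.46). None of its KO cells carried markers of another lineage. Within it Il1rl1 had 17 and 54 UMIs in KO (1.25) and 28 and 638 in WT (3.26), Areg 79 and 210 UMIs (0.99, WT 1.92) and Gata3 134 and 296 UMIs (0.72, WT 1.51). Il2ra, the IL-2 receptor α chain, was at 0.27 in KO and 1.82 in WT.

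Type 17 cells were more numerous after papain in KO as in WT. An Il17a-led sub-cluster, with Il17re, Ccr6, Tmem176a and Tmem176b among its leading genes, held 29 cells in DPBS KO (0.533%) and 76 in Papain KO (1.40%), a log2 ratio of 1.39 (0.76 to 2.06). In WT it held 37 and 98 cells, a ratio of 1.43 (0.87 to 2.02). Of the KO cells 4 and 22 carried markers of another lineage, and the 25 and 54 cells left gave 1.13 (0.42 to 1.88), with 1.35 in WT. Per UMI of the whole sub-cluster Il17a was level, at 423 and 392 CPM in KO (-0.11, -0.44 to 0.23) and at -0.08 in WT. Its total there was 99 and 291 UMIs in KO, in 11 and 28 cells. In the 25 and 54 KO cells without markers of another lineage it had 79 and 259 UMIs. No value per UMI was taken for that smaller set, so a change of Il17a per cell is left undecided. Il17f was higher within the sub-cluster, with 13 and 110 UMIs (1.41, 0.58 to 2.37, WT 2.07), and 4 and 97 UMIs without those cells.

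The T-cell types in this sub-cluster differed between DPBS and papain. Cells called CD4 T were 5 and 39 in KO and 9 and 61 in WT, and cells with no single call, which can include γδ T cells, were 22 and 31 in KO. Cd4 itself had 14 and 87 UMIs (0.97) and the γδ receptor gene Trdc 113 and 246 UMIs, in 6 and 11 cells. Over all CD4 T cells, 2 of 3 measured type 17 genes were higher in KO (median 2.24) and 6 of 6 in WT (median 4.28). Il17a had 20 UMIs in 1 cell and 198 UMIs in 15 cells (2.96), with 73 in 1 cell, and 6 and 391 UMIs in WT (5.73). Il17f had 11 and 66 UMIs (2.24, WT 3.97). They had 0 and 183 UMIs and 2 and 59 UMIs when cells with markers of another lineage were left out. Ccr6 had 5 and 44 UMIs, a ratio of 2.79 under the minimum of 50 UMIs, and Il22 was at -0.08 (25 and 30 UMIs).

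**Figure D3:**
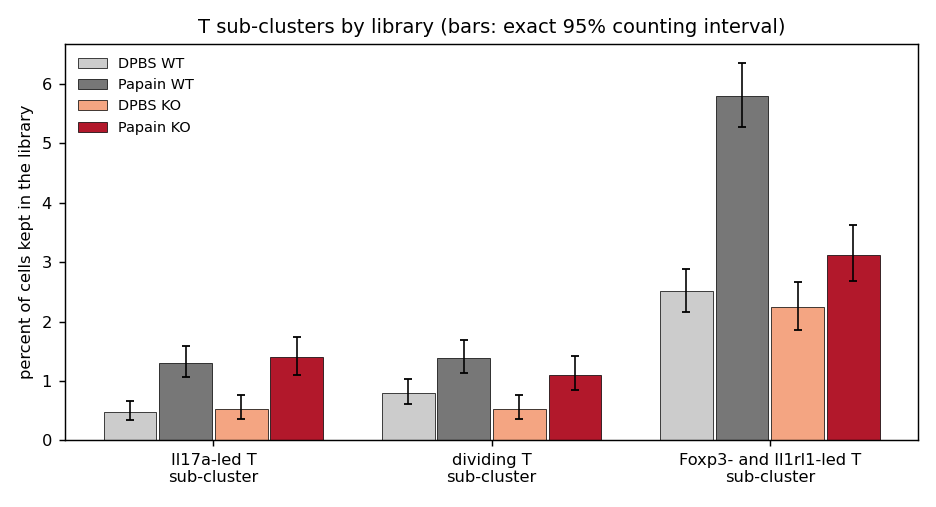
Share of the kept cells of each library (percent, bars from 0) in the Il17a-led, the dividing and the Foxp3- and Il1rl1-led T-cell sub-clusters, with exact 95% counting intervals. The Il17a-led sub-cluster is at 0.533% and 1.40% in DPBS KO and Papain KO, and the Foxp3- and Il1rl1-led one is at 2.24% and 3.12% in KO and reaches 5.80% in Papain WT.

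Among all genes of CD4 T cells, the 5 largest rises were those of the protease inhibitor Serpina3g (2 and 62 UMIs, 4.61, 2.70 to 7.69), Ly6d (15 and 208 UMIs, 3.45), the leukotriene B4 receptor Ltb4r1 (6 and 72 UMIs, 3.24) and the B-cell genes Ebf1 (2.96) and Ms4a1 (2.95). Without cells with markers of another lineage they were at 4.37, 2.16, 2.90, 0.53 and 1.84, the genes past the fold upward went from 225 to 109, and the MHC class II median went from 1.90 to 0.41. The genes named in that set included Tmem176b (30 and 226 UMIs, 2.85) and Tmem176a (31 and 186 UMIs, 2.55), both high in type 17 cells, and Hspb1 (45 and 249 UMIs, 2.28). Cxcr6, a receptor of tissue-resident T cells, had 32 and 198 UMIs in KO (2.28) and 119 and 795 in WT (2.45). The largest falls were those of Loxl2 (44 and 19 UMIs, -1.56), Mc1r (48 and 21 UMIs, -1.54) and Basp1 (118 and 58 UMIs, -1.37).

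Cell cycle genes were higher after papain in both CD4 and CD8 T cells. In CD8 T cells 11 of 14 were past the fold upward (median 1.26), 9 without cells with markers of another lineage (median 1.08), and 8 in WT (median 1.09). In CD4 T cells 11 of 14 were past the fold (median 1.18), but 3 without those cells (median 0.91), and 0 in WT (median -0.26). The proliferation marker Mki67 had 97 and 311 UMIs in CD8 T cells (1.26, WT 1.21) and 150 and 432 in CD4 T cells (1.18, or 0.58 without those cells, WT 0.52). A dividing T-cell sub-cluster held 29 and 60 cells in KO (1.05, 0.39 to 1.74), or 28 and 47 without those cells (0.77, 0.06 to 1.5), and was at 0.79 in WT.

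In CD8 T cells 1.38% of 8709 genes were past the fold upward and 0.103% downward, and the 5 largest rises were led by mitotic genes. They were cyclin B1, Ccnb1 (8 and 59 UMIs, 2.46), the spindle gene Aspm (9 and 53 UMIs, 2.14, or 1.63 without cells with markers of another lineage), the potassium channel gene Kcna2 (8 and 44 UMIs, 2.04), the condensin gene Ncaph (1.90) and the helicase gene Brip1 (1.81). Arv1 (-1.5), Zfp930 (-1.38) and Dubr (-1.25) had the largest falls. Cytotoxic genes were past the fold in 0 of 9 members (median 0.24), against 3 higher in WT (median 0.83). Ifng had 112 and 282 UMIs in KO (0.91, WT 1.17), Gzmb 382 and 356 UMIs (-0.52, WT 1.53), and Gzmk was at 0.94 in KO and 2.09 in WT.

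Few genes of B cells were past the fold, 0.558% of 9317 upward and 0.236% downward, and the largest rise was that of Il10. This regulatory cytokine gene had 7 UMIs in 7 cells of DPBS KO and 56 UMIs in 26 cells of Papain KO, with at most 9 in 1 cell. The log2 ratio was 2.43 (1.30 to 3.81), against 0.39 in WT. Il10 was at 3.13 and 1.02 CPM in DPBS WT and DPBS KO, and at 4.11 and 5.50 CPM in Papain WT and Papain KO. Ahnak2 (13 and 97 UMIs, 2.33), the sulphotransferase Chst7 (14 and 81 UMIs, 1.97), the semaphorin receptor Nrp2 (9 and 52 UMIs, 1.96) and the transcriptional repressor Zbtb32 (29 and 165 UMIs, 1.94) followed, with 1.16, 1.28, 1.76 and 1.60 in WT. A B-cell cluster with Zbtb32 among its leading genes held 85 and 156 cells in KO. The log2 ratio of its share was 0.88 (0.49 to 1.28), and 1.19 in WT. The B-cell clusters led by Hs3st1 and Fcer2a were at -0.01 and 0.54 in KO, and at 0.29 and -0.62 in WT. How far the gene ratios go with these shares was not tested. The falls of Plet1 (-1.47) and Krt79 (-1.45) concern genes of alveolar macrophages, whose share was also lower in that library, and their part in the result was not tested. The third fall was that of Trip13 (-1.46).

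Among antibody and germinal centre genes 2 of 10 were higher in KO (median 0.19). The IgA gene Igha had 18 and 1396 UMIs (5.71), but 1162 lay in 1 cell, and without cells with markers of another lineage the ratio was 3.13. Jchain had 17 and 106 UMIs (2.07, or 1.53). Ighe had 0 UMIs in each library, and Ighg1 had 0 in both KO libraries and 1 and 19 in WT. The MHC class II median was -0.19.

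Hspa1b was past the fold upward in 7 of 11 classes of the KO lung, as was Igkc, an antibody light chain gene of B and plasma cells, in 7 of 10. Igkc was level in B cells (0.04) and was at 4.81 in CD4 T cells and 3.11 in neutrophils. The B-cell genes Cd79a, Ebf1, Ighd and Iglc2 were each higher in 4 classes, and in B cells they were at -0.10, -0.10, -0.15 and 0.19. The source of this RNA in other classes was not tested. In CD4 T cells Hspa1b had 1685 and 5630 UMIs (1.40, WT 0.96), in CD8 T cells 1214 and 4566 UMIs (1.49, WT 1.05) and in B cells it was at 1.01 (WT 0.37). The heat shock and immediate early list as a whole moved little, with medians of 0.05 to 0.40 over the 11 classes in KO and -0.77 to 0.61 in WT. S100a4 and Ccl4 were higher in 5 of 10 classes each. Gm10036 was lower in 6 of 8. The genes of this paragraph were chosen after their values were seen.

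**Figure D4:**
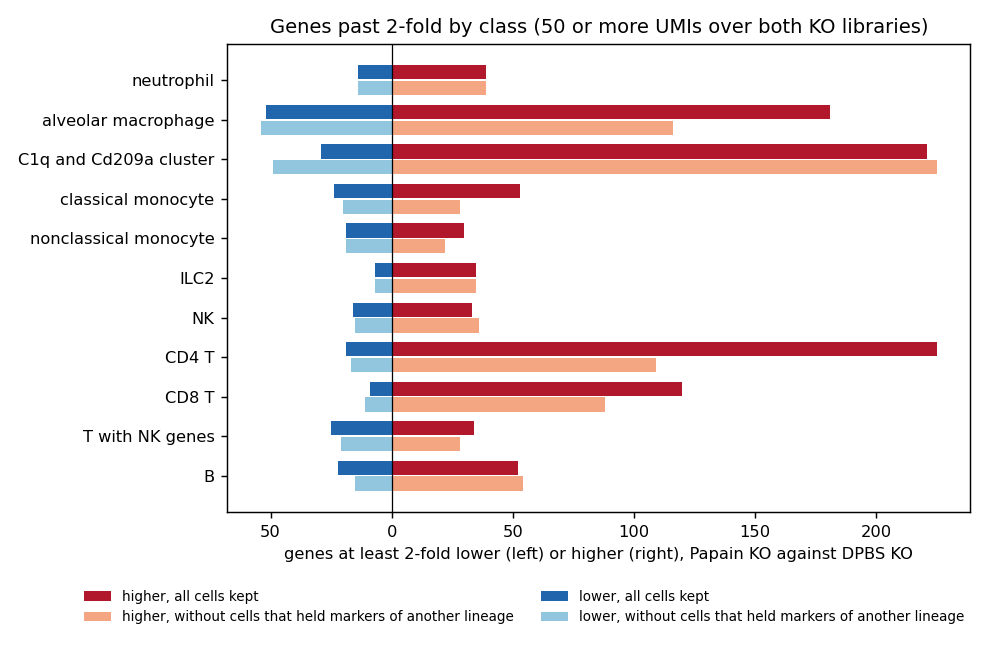
Number of genes past 2-fold (with 50 UMIs or more over both KO libraries) upward and downward in each class, with all cells and without cells with markers of another lineage. CD4 T cells have 225 genes upward with all cells and 109 without mixed cells, and alveolar macrophages 181 and 116.

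The overlap of past-fold genes was taken with the WT contrast, which uses other libraries. Among genes measured in both genotypes, 83 genes were higher in alveolar macrophages of both, 46.6% of the KO genes and 39.2% of the WT genes, where 1.69% and 2.01% of all genes were past the fold. In B cells 23 genes were shared (46.9% and 21.3%, all genes 0.527% and 1.16%), in CD4 T cells 56 (26.0% and 22.5%, all genes 2.44% and 2.82%) and in CD8 T cells 30 (27.5% and 25.2%, all genes 1.26% and 1.38%). The C1q and Cd209a cluster had 17 shared genes (8.17% and 17.5%, all genes 3.24% and 1.51%) and neutrophils 4 (11.1% and 10.8%, all genes 1.38% and 1.42%). NK cells had 0 genes in common of 30 and 23, where 1.11% and 0.851% of 2703 genes were past the fold, so few could be shared. No test of these shares was made, and shared depth, class size and mixed cells all enter them.

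**Figure D5:**
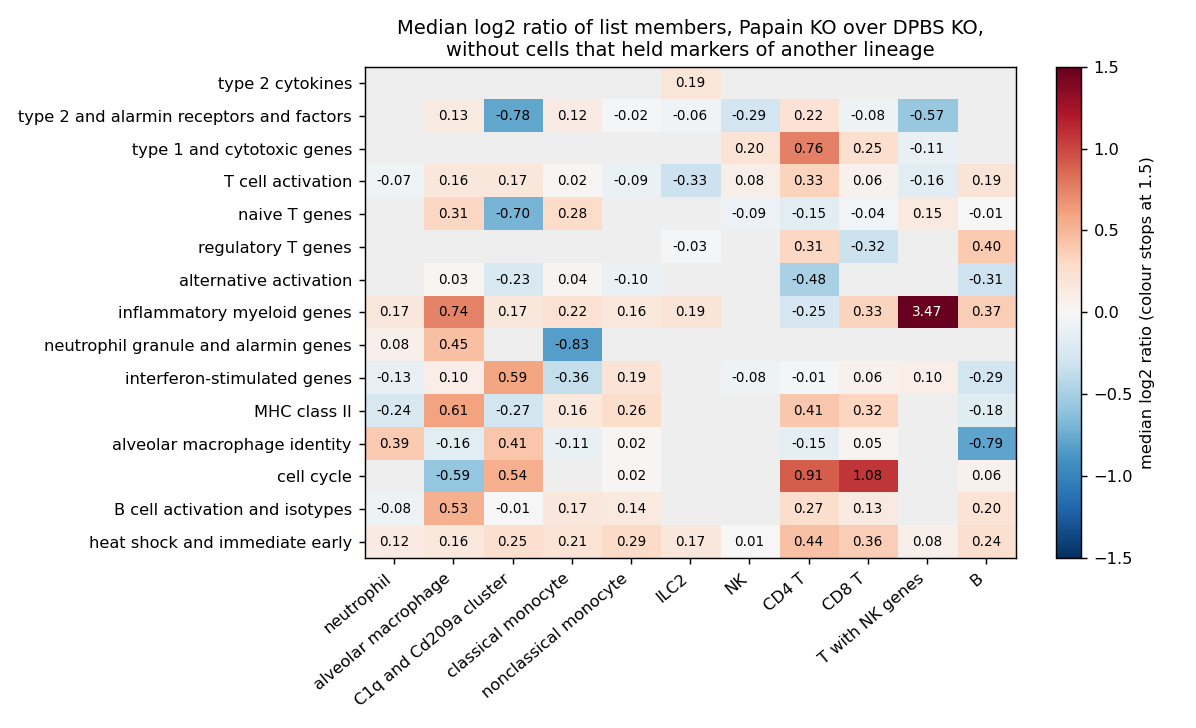
Median log2 ratio of Papain KO to DPBS KO for each gene list (rows) and class (columns), without cells with markers of another lineage. Fields with fewer than 3 measured members are grey, the colour scale stops at 1.5, alternative activation in alveolar macrophages is at 0.03 and the inflammatory list there at 0.74.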

How the data were processed

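Single-cell libraries of sorted lung leukocytes (1 per genotype and treatment) were used as deposited by the authors: UMI counts per gene and barcode for 31053 genes, made with Cell Ranger on mm10 per the labels, not normalized. The annotation and the cell-calling settings were not given in the sources used here. The files held 53854420 to 75675956 UMIs per library.

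Here, a barcode had to show over 200 detected genes and have less than 15% of its UMIs from mitochondrial symbols. Doublets were removed with Scrublet in Scanpy 1.11.5 at an assumed rate that grows with the number of barcodes (4.56%, 260 in each KO library, whereas the caller's own threshold gave 182 and 193). Seurat 5.3.0 in R 4.3.3 integrated and clustered the 4 libraries with 2000 variable genes, 30 dimensions and resolution 0.8. This first clustering gave 27 clusters. Cells of its T-cell clusters were clustered again, and sub-clusters with fewer than 90% of one call were assigned cell by cell. Clusters were named from marker lists by a scoring rule set after the clusters were seen. For each of 11 classes with 50 or more cells in each KO library, UMIs were summed per library and expressed as CPM. Exact 95% intervals (Clopper-Pearson, Poisson, conditional binomial) were computed with SciPy 1.17.1, and intervals cover counting error only.

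For each class the text names the 5 largest rises and 3 largest falls among genes with 50 UMIs or more over both KO libraries, UMIs in 10 or more cells of the higher library, at most 25% of them in 1 cell, and an interval without 0. Mitochondrial, ribosomal, receptor and immunoglobulin segment and unnamed predicted genes were left out. Members of 17 gene lists past the fold or with the most UMIs, and genes named by the same rule without mixed cells, were added (some items are not reported here), and further genes were chosen after their values were seen. The genes, lists and classes were chosen with earlier results of these data known. The alternative without cells with markers of another lineage was chosen after seeing the data. Scripts were tested on simulated data. Promoter windows came from RefSeq (GRCm38.p6).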

Additional observations from a re-analysis of the deposited data

Results flagged for a closer look

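The results below moved in opposite directions after papain in KO and WT, by 2-fold or more each way for a gene, and with 95% counting intervals on opposite sides of 0 for a share. The difference between genotypes was not tested, as each rests on 1 pair of libraries per genotype. They were 2 of the class shares and 15 of 833 list members compared.

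The log2 ratio of the NK cell share was 0.51 in KO and -1.5 in WT, and that of the CD8 T cell share was 0.21 and -0.66. With alveolar macrophages left out of the total the KO ratios were 0.28 (-0.19 to 0.77) and -0.015 (-0.17 to 0.14), so neither was then clear of 0. In neutrophils Ccl4 was at 1.85 in KO and -1.49 in WT, and in nonclassical monocytes at 1.35 and -1.42. Retnla in alveolar macrophages was at -1.36 in KO and 5.47 in WT, from 8 UMIs in Papain KO and 612 in Papain WT. In KO it was at 1.85 and 0.72 CPM, and CD8 T cells had 2.06 and 0.56 CPM. In macrophages of DPBS KO 13 of its 44 UMIs lay in 1 cell, and the source of these few UMIs was not tested. In classical monocytes Areg was at -1.41 and 1.30, Cxcl1 at -2.43 and 1.45, S100a8 at -1.61 and 2.20, and S100a9 at -1.17 and 2.55. With mixed cells left out, S100a9 was at -0.83 in KO and Cxcl1 at 0.79 in WT, under 2-fold, and 54 of 94 UMIs of S100a8 and 59 of 123 UMIs of S100a9 in DPBS KO lay in 1 cell. The cytotoxic granule gene Nkg7 was at 1.91 in KO and -2.48 in WT in the C1q and Cd209a cluster, with 20 of 48 UMIs of Papain KO in 1 cell, and without cells with markers of another lineage it had 0 and 3 UMIs in KO and was at -0.38 in WT. Klf2 was at 1.09 and -1.20 in that cluster, and Nkg7 at 1.17 and -1.12 in CD4 T cells. In T cells with NK genes Gzmb was at -1.19 and 1.75, and Ccl3 at 5.99 (3.48 to 11.3, from 1 UMI in DPBS KO) and -1.28.

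Antibody genes came mainly from single cells. Igha had a log2 ratio of 11.10 (8.62 to 16.4, from 1 UMI in DPBS KO) in KO and -6.56 in WT in CD4 T cells, where 2738 of 2786 UMIs of Papain KO lay in 1 cell. Jchain was at 6.71 and -5.19 in the same class, with 627 of 667 UMIs in 1 cell, and Igha was at 5.71 and -1.68 in B cells, with 1162 of 1396 UMIs in 1 cell. With mixed cells left out, the WT ratios were 1.95, 2.62 and 0.69, of the same sign as in KO, and Igha of B cells was at 3.13 in KO.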

How the results depend on the processing

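Each library is the only one of its group, so no library could be left out. No paired analysis was possible because each genotype and treatment had 1 library and the labels carry no replicate numbers. Of 86 class shares recomputed under the alternatives, 80 moved by less than their counting interval. Those that moved or reversed were the C1q and Cd209a cluster without integration (-0.0078 against 0.60), classical monocytes gated by single transcripts (-0.35 against -0.11), CD4 T cells by the same gating (0.25 against 0.11), and CD4 T (-0.11), CD8 T (-0.015 against 0.21) and B cells (0.015 against 0.24) as shares of cells outside the alveolar macrophage class. Genes past the fold, summed over 11 classes, were 1023 upward and 236 downward. With a minimum of 20 UMIs they were 2892 and 1069, with 100 UMIs 452 and 79, with no minimum 15676 and 15505, and at 1.5-fold 3650 and 1598. List members past the fold upward were 131, and 81 without cells with markers of another lineage, an alternative chosen after seeing the data. Of 960 values of named genes 9 reversed. Without integration Syngr1, C1qb and C3ar1 in alveolar macrophages were at -0.18, -0.040 and -0.69. E2f7 there was at 0.065 with resolution 0.4. Gated by single transcripts, Fcer2a of the C1q and Cd209a cluster was at 0.0086, Tuba1b of ILC2 at 0.20 and Krt79 of B cells at 0.16. Without cells with markers of another lineage Cd3e and Cd3g of classical monocytes were at -0.45 and -0.32. Apart from that alternative, whose construction removes mixed cells, the cause was not tested. Depth limits the small classes most, since ILC2, NK cells and T cells with NK genes had 51 to 91 cells in each KO library, and a class of 3 cells is 0.0551% of a KO library.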

Other observations

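Over all kept cells of the KO libraries, type 2 and type 17 cytokine transcripts were present after papain, but often from single cells. Il5 had 54 UMIs in DPBS KO and 113 in Papain KO, of which 72 lay in 1 T cell with no single class, and Il13 had 30 and 111, of which 101 were in ILC2. Il4 had 9 and 29 UMIs, Il17a 107 and 312, Il22 25 and 107, and Il10 70 and 205. Ifng had 387 and 892 UMIs and Areg 1680 and 2648, with 382 UMIs of Areg in 1 T cell with no single class. In CD4 T cells of Papain KO, Retnla had 726 UMIs in 7 cells, 720 of them in 1 cell. In B cells of Papain KO the haemoglobin gene Hbb-bs had 3001 UMIs, 2994 of them in 1 cell. These genes were chosen after their values were seen.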
